A study of Mus musculus with 8 samples.

Results

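The genes described here are 50 genes of mitosis and of the G2 phase that precedes it, a list chosen by name: cyclins and kinases that start division, the spindle and its checkpoint, the centromere, and the proteins that condense, separate and part the chromosomes. The rule took every row of the study's expression table whose gene symbol was on the list, and all 50 were found among the 53801 genes of the count table. Messenger RNA had been sequenced from sorted intestinal crypt cells of 8 mice, 4 labelled β-catGOF; Mll1-/- (knockout) and 4 labelled β-catGOF; Mll1+/- (control). Every mouse carried the gain-of-function β-catenin allele and a tamoxifen-inducible Cre driven from the Lgr5 locus, so the labels set the groups apart by Mll1 alone, and no library without active β-catenin was used here. Mll1, encoded by Kmt2a, is a histone H3 lysine 4 methyltransferase. Tamoxifen was given at 50 mg/kg on 3 consecutive days to mice of 4 to 6 weeks, and EpCAM-stained, Lgr5-GFP+ cells were sorted 10 days after induction. Cre from the Lgr5 locus is active in only some crypts, and each library is a small pool of cells from 1 mouse.

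A dividing cell passes through G2 with its DNA copied, and cyclin B bound to Cdk1 then drives it into mitosis. Most genes of this list are transcribed periodically, with their RNA highest in G2 and mitosis, under the control of the DREAM and B-Myb/FoxM1 complexes. In the crypt, Lgr5+ stem cells and their transit-amplifying progeny divide and the cells of the villus do not, so RNA of this group is known as a mark of cycling cells. In a bulk library, fewer dividing cells and less of this RNA in each dividing cell cannot be told apart.

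The libraries held 14468751 to 16847793 counts on genes, with no molecular identifiers, and every member had at least 24 counts in every library. Values are CPM, a count divided by its library total after TMM scaling, and are listed for the Mll1-/- mice J_7075, J_7096, J_7135 and J_7136 and then for the Mll1+/- mice J_7079, J_7100, J_7134 and J_7139, always in that order. The first 2 mice of each genotype belong to a first run of library numbers (run 1) and the last 2 to a second (run 2), and the sources used here do not say what a run shared. Differences are log2 fold changes of Mll1-/- over Mll1+/- from edgeR, with p adjusted over the 16445 genes kept by a filter on low counts, all 50 members among them. Kmt2a stood at 63.5 ± 10.7 CPM (SD, n = 4) in Mll1-/- and 53.8 ± 7.45 CPM (SD, n = 4) in Mll1+/- libraries. One count per gene cannot separate reads of the deleted part, so Kmt2a does not test the labels. Lgr5 stood at 261 ± 19.9 against 271 ± 41.0 CPM and Epcam at 1516 ± 205 against 1356 ± 111 CPM (SD, n = 4 each).

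Libraries stood apart in ways that the labels do not give. The log2 level of the X-linked Xist minus that of 4 Y-linked genes was -8.06 and -6.59 in the Mll1-/- mice of run 1 and 8.98 and 9.03 in the Mll1+/- mice of run 1. It was 0.33 and 9.63 in the Mll1-/- mice of run 2, and -9.21 and 8.24 in the Mll1+/- mice. In run 1, genotype and this difference therefore cannot be told apart. J_7135, at 0.33, held reads of both kinds and was also the least like the others, with a highest rank correlation of 0.909 across genes, against at least 0.947 for the rest. Mitochondrial RNA took 17.1% to 27.1% of the counts in Mll1-/- and 23.3% to 30.1% in Mll1+/- libraries. The part of these differences in the results below was not tested beyond the values given with and without them.

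No member passed an adjusted p of 0.1 in edgeR, where 0.0851% of all genes tested did (14 of 16445). The smallest adjusted p of a member was 0.403, for the condensin subunit Ncaph, which was the 1 member that the DESeq2 Wald test called (adjusted p = 0.0859), beside 2.47% of all genes in that test. At an unadjusted p under 0.05, 10 of 50 members were higher in Mll1-/- and none lower, beside 5.40% of all genes higher and 3.75% lower. For 4 members every Mll1-/- library lay above every Mll1+/- library and for none the reverse, beside 3.34% and 2.94% of all genes. For each of those 4 the lack of overlap fixes the exact two-sided permutation p at 0.0286, the smallest that 70 assignments of the libraries can give. That p therefore repeats the selection, and it is not adjusted over the members. The 4 are Ncaph (chr2:127103809-127133954), Nek2 (chr1:191821444-191833050), Plk1 (chr7:122159439-122169873) and Ube2s (chr7:4794546-4812590), with positions on mm10 as in the count table. In the other 46 members the genotypes overlapped. The count at an unadjusted p under 0.05 was 4 without J_7079, 4 without J_7135, 5 without J_7134 and 17 without J_7136. All of these were higher in Mll1-/-, beside 4.2%, 4.7%, 4.2% and 5.1% of all genes higher in the same fits. The count without overlap was 7 without J_7100 or J_7139 and 11 without J_7136. Fewer libraries overlap less often by construction, and the share over all genes was not counted there. With the Xist difference as a covariate, 7 members had an unadjusted p under 0.05, beside 5.49% of all genes higher, and 43 were above 0.

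The log2 fold changes ran from -0.05 to 0.98 with a median of 0.35, beside a median of 0.01 over all genes. The median was 0.22 without J_7079. Their standard errors ran from 0.15 to 0.51. They were above 0 in 47 members, that is in 94% beside 50.8% of all genes, and below 0 in Bub3, Cks2 and Cenpa. The members share libraries and move together, so these counts are not 50 separate observations. The list was also chosen with earlier results of these data known. For 30 members the 95% interval lay within a doubling in either direction, and for 20 it reached past a doubling in favour of Mll1-/-. No interval reached past a halving.

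**Figure D1:**
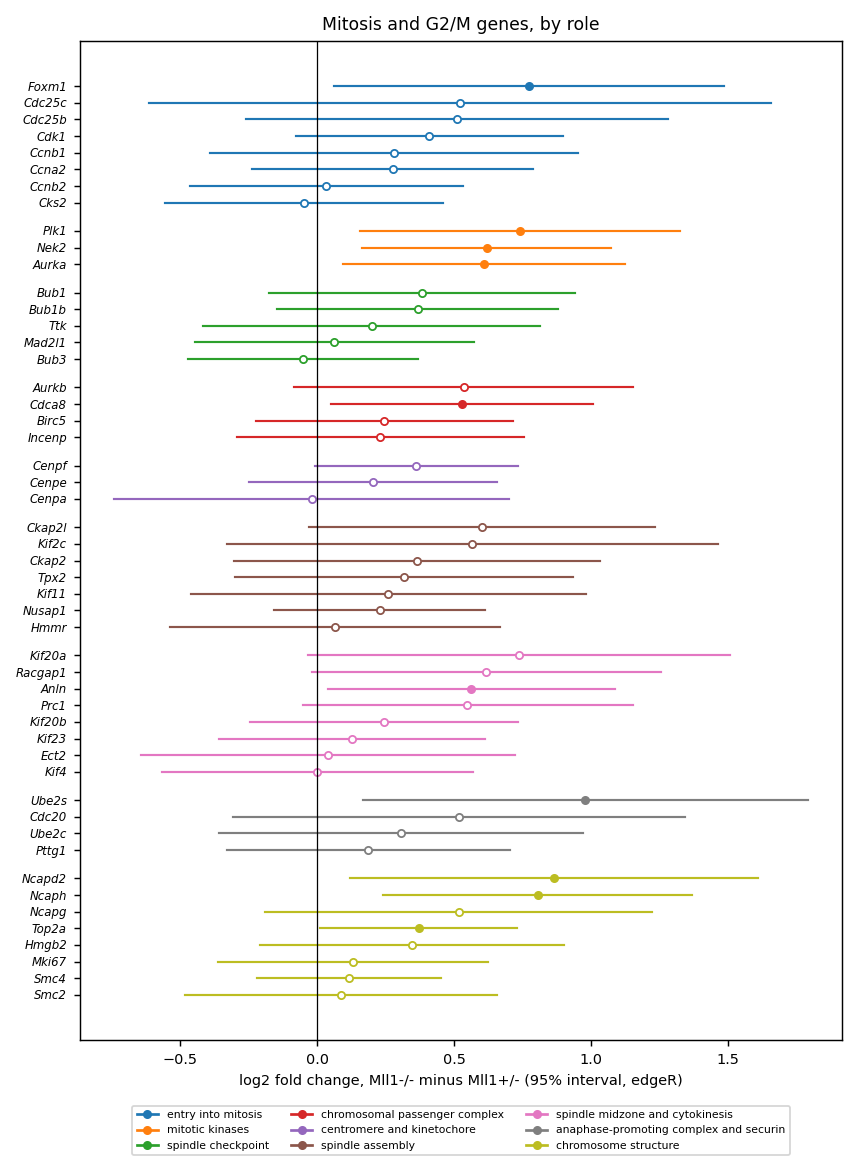
Log2 fold change of each member, Mll1-/- over Mll1+/-, with its 95% interval from edgeR (points and lines), grouped and coloured by role. Filled points mark the 10 members with an unadjusted p under 0.05, and a reader should see that most points lie to the right of 0 while 40 of the 50 intervals cross it.

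The size of the difference was unequal between runs. In run 1, all 50 members were higher in the Mll1-/- pair, with a median log2 difference of 0.51. In run 2, 29 were higher, with a median of 0.13, and the medians over all genes were 0.00 and -0.04. Summed over the 50 members, the Mll1-/- libraries held 5377, 6199, 5221 and 4408 CPM and the Mll1+/- libraries 3293, 5126, 4104 and 5086 CPM. The sums overlap: J_7136 of the Mll1-/- group lay below J_7100 and J_7139 of the Mll1+/- group. J_7079 was the lowest of all 8 libraries for 26 members, and J_7096 and J_7135 were the highest for 21 and 19.

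**Figure D2:**
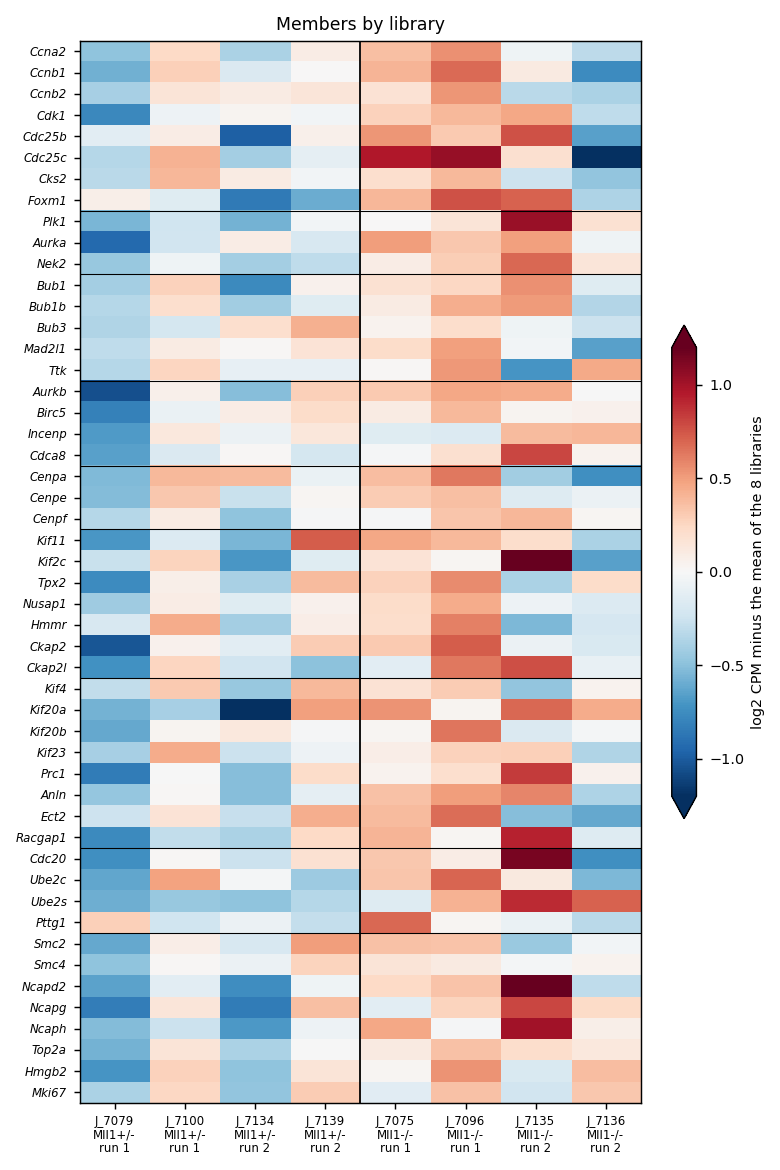
Log2 CPM of each member (rows, grouped by role) in each library (columns) minus that gene's mean over the 8 libraries, with colours limited at 1.2 in either direction. The column of J_7079 is blue in nearly every row, and the column of J_7135 holds both the darkest red cells and blue ones.

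Among the 8 genes of entry into mitosis the median log2 fold change was 0.35, with 0.59 in run 1 and -0.02 in run 2 for their mean. Ccnb2, a B-type cyclin that binds Cdk1, had the highest level per length of all members, 101 CPM per kilobase of exon. Its libraries held 170, 218, 120 and 116 CPM in Mll1-/- and 115, 167, 161 and 167 CPM in Mll1+/- mice. The genotypes overlapped in part, and the log2 fold change was 0.03 (SE 0.22, edgeR adjusted p = 0.979). Its difference was 0.48 in run 1 and -0.48 in run 2. Ccnb1, the other main mitotic B cyclin, was measured at 75.1, 91.0, 61.2 and 33.5 CPM against 38.1, 69.3, 50.4 and 57.0 CPM. J_7136 was the lowest and J_7096 the highest of the 8, both Mll1-/-, and the log2 fold change was 0.28 (SE 0.30). Of the Ccnb1 sequence, 27.8% of 31-base words also occur in another gene, mainly the pseudogene Ccnb1-ps. The paper counted uniquely mapped reads, so some Ccnb1 reads may be missing.

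Cdk1, the kinase that these cyclins activate, was at 167, 180, 189 and 112 CPM in Mll1-/- and 80.3, 132, 141 and 135 CPM in Mll1+/- libraries. J_7136 lay among the Mll1+/- values and the other Mll1-/- mice above all of them. Its log2 fold change was 0.41 (SE 0.22, edgeR unadjusted p = 0.0903), and 0.25 without J_7079. Foxm1, the transcription factor that activates late cell cycle genes, had one of the lowest levels, 2.07 CPM per kilobase. It was read at 14.6, 18.9, 18.1 and 8.60 CPM against 11.6, 10.1, 6.18 and 7.36 CPM, which overlap only through J_7136. The log2 fold change was 0.77 (SE 0.32), with an unadjusted p of 0.0360 and an adjusted p of 0.517 in edgeR.

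None of the genes of entry passed an adjusted p of 0.1 in edgeR. Cdc25b and Cdc25c, phosphatases that remove the inhibitory phosphates from Cdk1, had log2 fold changes of 0.51 (SE 0.34) and 0.52 (SE 0.51). Cdc25b had 0.33 without J_7135 and 0.32 without J_7134. Cdc25c had 0.30 without J_7075, 0.25 without J_7096 and 0.86 without J_7136. With the Xist difference as a covariate it had -0.06. Cdc25c varied most of all members, 6.93-fold from its lowest library, J_7136, to its highest, J_7096, both Mll1-/-. Ccna2, the cyclin of S phase and G2, had 0.28 (SE 0.23). Cks2, a small partner of Cdk1, had -0.05 (SE 0.23), and 31.7% of its 31-base words are shared with the gene model Gm15452.

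The role of mitotic kinases held Plk1, Nek2 and Aurka, each with an unadjusted p under 0.05 in edgeR. The kinases Cdk1, Aurkb, Bub1 and Ttk, placed under other roles, had edgeR unadjusted p of 0.0903, 0.0822, 0.156 and 0.485. The mean difference of the 3 on the log2 scale was 0.64 in run 1 and 0.65 in run 2. Plk1 had 0.47 and 0.91 and Nek2 0.44 and 0.77, while Aurka had the larger difference in run 1. Plk1, which acts at centrosomes, kinetochores and the midbody, held 30.4, 33.7, 62.1 and 34.4 CPM in Mll1-/- and 20.6, 25.6, 20.4 and 29.4 CPM in Mll1+/- mice. The genotypes did not overlap, though J_7135 was far above the rest. The log2 fold change was 0.74 (SE 0.26, edgeR adjusted p = 0.467) and 0.45 without J_7135. Plk1 shares 18.7% of its 31-base words with other genes, mainly the pseudogene Plk-ps1.

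Nek2, a centrosomal kinase that helps to separate the spindle poles, was at 22.4, 25.9, 34.0 and 23.5 CPM against 15.4, 20.4, 16.0 and 17.1 CPM. Again all Mll1-/- values lay above all Mll1+/- values, by a small margin between J_7075 and J_7100. Its log2 fold change was 0.62 (SE 0.20, edgeR adjusted p = 0.429), and 0.47 without J_7135. Aurka, the kinase of centrosome maturation and the spindle poles, had 66.4, 58.6, 65.9 and 45.3 CPM in Mll1-/- and 24.5, 39.9, 49.7 and 40.9 CPM in Mll1+/- libraries. Only J_7136 and J_7134 crossed. The log2 fold change was 0.61 (SE 0.23, edgeR adjusted p = 0.486), 1.00 within run 1 and 0.28 within run 2.

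**Figure D3:**
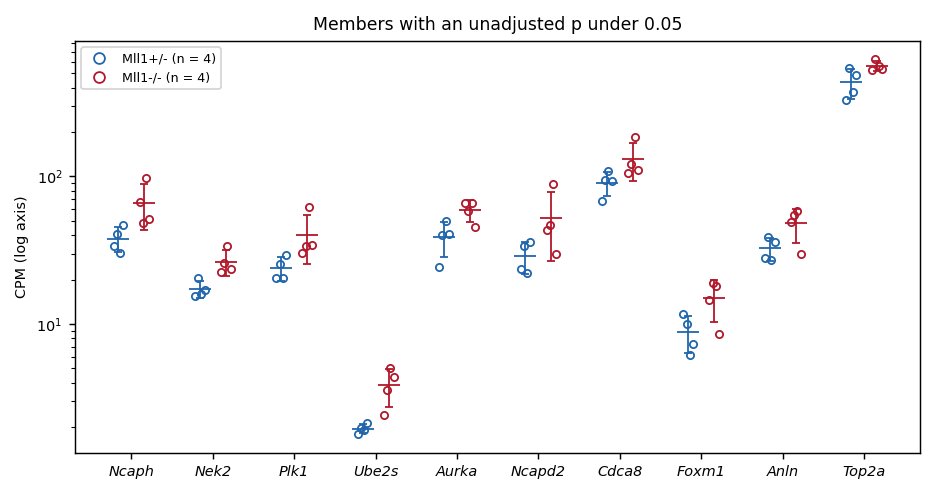
CPM on a log axis of the 10 members with an unadjusted p under 0.05, each circle 1 library, with the mean and SD of 4 libraries as bars. The genotypes separate in Ncaph, Nek2, Plk1 and Ube2s and overlap in the other 6.

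The spindle checkpoint, which holds back anaphase until every kinetochore is attached, had a median log2 fold change of 0.20 over 5 genes. None of them had an unadjusted p under 0.05. The median of the centromere and kinetochore genes was also 0.20, and the other roles had larger ones. Bub3, the checkpoint's adaptor protein and its gene with the highest level per length, held 182, 205, 171 and 147 CPM in Mll1-/- and 137, 153, 203 and 237 CPM in Mll1+/- libraries. The Mll1+/- values spanned the Mll1-/- ones at both ends, and the log2 fold change was -0.05 (SE 0.19, edgeR adjusted p = 0.960). Its difference was 0.41 in run 1 and -0.47 in run 2. The kinase Bub1 and the related Bub1b had 0.38 (SE 0.25) and 0.37 (SE 0.23), and were higher in Mll1-/- in both runs. Bub1 had 0.23 without J_7134. Mad2l1, the inhibitor of Cdc20, had 0.06 (SE 0.23). Ttk, the kinase at the head of the pathway, had 0.20 (SE 0.27) and was lowest in J_7135, the library that was highest for 19 other members.

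The chromosomal passenger complex, which corrects faulty attachments and later marks the midzone, had a median log2 fold change of 0.39 over 4 genes, all above 0. Its Borealin subunit Cdca8 was at 106, 122, 186 and 110 CPM in Mll1-/- against 67.7, 94.5, 108 and 92.4 CPM in Mll1+/- mice. J_7134 lay between J_7075 and J_7136, and the other Mll1+/- libraries were below all Mll1-/- ones. The log2 fold change was 0.53 (SE 0.21, edgeR adjusted p = 0.510), and it was 0.31 without J_7135. Birc5, or Survivin, the most abundant member of the complex per length, held 174, 213, 167 and 169 CPM against 92.7, 154, 174 and 190 CPM. These overlapped, with J_7079 well below the rest, and the log2 fold change was 0.25 (SE 0.21). Aurkb, the kinase of the complex, had 0.54 (SE 0.28), or 0.34 without J_7079, and Incenp, its scaffold, 0.23 (SE 0.23).

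Of the centromere and kinetochore genes, Cenpa, the histone H3 variant that marks centromeres, was at 154, 185, 89.0 and 71.5 CPM in Mll1-/- and 82.3, 157, 155 and 112 CPM in Mll1+/- mice. Both run 1 mice of the Mll1-/- group were higher than both run 2 mice, with the Mll1+/- values spread over the same range. The log2 fold change of Cenpa over both runs was -0.02 (SE 0.32), with 0.57 in run 1 and -0.72 in run 2. It was -0.35 with the Xist difference as a covariate. The kinetochore motor Cenpe had 0.20 (SE 0.20) and Cenpf, a large kinetochore protein, 0.36 (SE 0.17, edgeR unadjusted p = 0.0545).

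Among the 7 genes of spindle assembly the median was 0.32 and none had an unadjusted p under 0.05. Nusap1, a microtubule-bundling protein and the most abundant of them per length, held 163, 190, 134 and 124 CPM against 104, 148, 126 and 144 CPM. The highest library was J_7096 and the lowest J_7079, with the other values interleaved, and the log2 fold change was 0.23 (SE 0.17). The largest in this role were Ckap2l, a spindle protein, at 0.60 (SE 0.28), and Kif2c, a microtubule-depolymerising kinesin, at 0.57 (SE 0.40), which was 0.06 without J_7135. Kif2c in J_7135 lay 1.47 above the mean of the other Mll1-/- mice on the log2 scale, the largest such excess of that library. Ckap2, the spindle motor Kif11, Tpx2, the activator of Aurora A, and the hyaluronan-binding spindle protein Hmmr had 0.36, 0.26, 0.32 and 0.07. Without J_7079, Ckap2 had 0.15 and Tpx2 0.15, and without J_7096 they had 0.16 and 0.17. Tpx2 had 0.53 without J_7139. Kif11 ran from 0.095 to 0.656 with 1 library left out.

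The 8 genes of the spindle midzone and cytokinesis had a median of 0.40. Anln, the actin-binding scaffold of the cleavage furrow, stood at 49.3, 54.9, 57.9 and 30.0 CPM in Mll1-/- and 28.0, 39.0, 27.2 and 35.8 CPM in Mll1+/- libraries. J_7136 fell among the Mll1+/- mice and the other Mll1-/- mice lay above them all. Its log2 fold change was 0.56 (SE 0.23, edgeR adjusted p = 0.523). Ect2, which activates RhoA at the furrow and had the highest level per length of this role, held 147, 179, 79.1 and 73.6 CPM against 94.9, 127, 92.7 and 152 CPM. As with Cenpa, both run 1 mice of the Mll1-/- group were higher than both run 2 mice, and the log2 fold change was 0.04 (SE 0.30). The midzone kinesin Kif20a had 0.74 (SE 0.34), the centralspindlin subunit Racgap1 0.62 (SE 0.28) and the microtubule crosslinker Prc1 0.55 (SE 0.27). Their edgeR unadjusted p-values were 0.0591, 0.0560 and 0.0694. Without J_7135, Racgap1 had 0.37 and Prc1 0.32. Kif20a had 0.52 without J_7134 and 1.13 without J_7139. Of the Kif20a exons, 33.2% of the bases overlap Cdc23. Kif23, the other centralspindlin subunit, Kif20b and the chromosome-binding kinesin Kif4 had 0.13, 0.24 and 0.00.

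The anaphase-promoting complex is a ubiquitin ligase that destroys securin and cyclin B to end mitosis. Ube2s, the enzyme that lengthens its ubiquitin chains, had the lowest level of all members, 0.566 CPM per kilobase, and the largest log2 fold change, 0.98 (SE 0.36). Its values were 2.42, 3.59, 5.03 and 4.40 CPM in Mll1-/- and 1.80, 1.97, 1.93 and 2.13 CPM in Mll1+/- mice. All Mll1-/- values were the higher ones and the Mll1+/- values were narrowly grouped, with an edgeR adjusted p of 0.482. Ube2c, which starts the chains, had 92.8 CPM per kilobase and was measured at 288, 372, 249 and 158 CPM against 148, 320, 225 and 170 CPM. J_7136 and J_7079 were its lowest libraries, of opposite genotypes, and the log2 fold change was 0.31 (SE 0.30). It ran from 0.10 without J_7096 and 0.16 without J_7079 to 0.49 without J_7136 and 0.56 without J_7100. Of the Ube2c exons, 22.8% of the bases overlap Tnnc2. Cdc20, the mitotic activator of the ligase, had 0.52 (SE 0.37) but 0.12 without J_7135, and Pttg1, or securin, 0.19 (SE 0.23).

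The genes of chromosome structure had a median of 0.36 over 8, and 3 had an unadjusted p under 0.05. Condensin I, the complex that compacts mitotic chromosomes, is built on the ATPases Smc2 and Smc4 and the subunits Ncapd2, Ncapg and Ncaph. Ncaph was at 67.0, 48.3, 97.9 and 51.2 CPM in Mll1-/- and 33.9, 40.7, 30.1 and 46.6 CPM in Mll1+/- libraries. The genotypes did not overlap, although J_7096 and J_7139 lay close together. The log2 fold change was 0.81 (SE 0.25), with an unadjusted p of 0.0101, the smallest of all members, and it was 0.55 without J_7135. Ncapd2 held 43.6, 46.9, 89.5 and 29.9 CPM against 23.6, 33.9, 22.1 and 35.7 CPM. Only J_7136 fell among the Mll1+/- mice, and J_7135 was nearly double the next library. Its log2 fold change was 0.86 (SE 0.33, edgeR adjusted p = 0.494) and 0.48 without J_7135. Ncapg had 0.52 (SE 0.31) and 0.32 without J_7135.

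The ATPases, shared by both condensin complexes, had smaller values. Smc4 stood at 328, 318, 290 and 303 CPM in Mll1-/- and 212, 297, 281 and 354 CPM in Mll1+/- libraries. The Mll1-/- values were narrowly grouped inside the wider Mll1+/- range, and the log2 fold change was 0.12 (SE 0.15). Smc2 had 0.09 (SE 0.25). Whether the ATPases and the other subunits differ from each other was not tested.

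Top2a, the topoisomerase that untangles sister chromatids, was the most abundant member in CPM, at 524, 621, 564 and 533 CPM against 330, 544, 374 and 486 CPM. Only J_7100 of the Mll1+/- mice reached into the Mll1-/- values. Its log2 fold change was 0.37 (SE 0.16, edgeR adjusted p = 0.534). Mki67, the proliferation marker that coats mitotic chromosomes, held 215, 302, 202 and 297 CPM in Mll1-/- and 183, 281, 170 and 294 CPM in Mll1+/- libraries. Each genotype had a high and a low pair, and the log2 fold change was 0.13 (SE 0.22), with a 95% interval from -0.36 to 0.62. Hmgb2, a chromatin protein of dividing cells, had 0.35 (SE 0.25), 0.20 without J_7079 and 0.22 without J_7096.

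Per kilobase of exon the members ranged from 0.566 CPM for Ube2s to 101 CPM for Ccnb2, with Cks2 at 94.6 and Ube2c at 92.8. The spread over libraries of these 3 overlapped, so their order is not set by these data. Of the members, 13 share over 10% of their 31-base words with another gene, and none over 50%. Of the 50, 48 lay above the median gene tested and 8 were in its top 10%, and the median member exceeded 78.6% of genes.

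**Figure D4:**
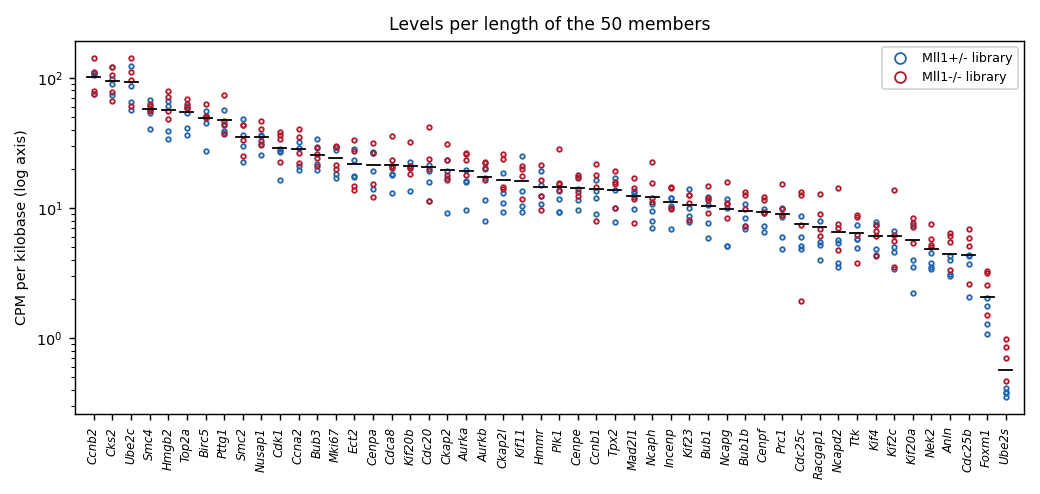
CPM per kilobase of exon on a log axis, each circle 1 library and each bar the mean of 8, with the members in order of their mean. Levels fall from Ccnb2 to Ube2s, and neighbours overlap along the order except for the last pair, Foxm1 and Ube2s.

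The members varied together over the libraries. Over all 1225 pairs the median Pearson r of log2 CPM over the 8 libraries was 0.51, and 91.4% of pairs were positive. With each genotype's mean removed the median was 0.44 and 85.1% were positive. Against the mean of the other members the median r was 0.72, and it was above 0.7 for 26 members, as for 2.04% of all other genes. Aurkb had the highest, 0.95, and Pttg1 the lowest, 0.02. These points share libraries, scaling and cell pools, and 8 libraries are few. Of all other genes, the 10 nearest to the members' mean were Gm5357, Icmt, Hpd, Idh1, Lyrm4, Inpp5f, Gm11110, Gm16675, Cdca2 and Spc25, with r from 0.95 to 0.90. The last 2 of them are mitosis genes, and 4 of the others were counted below 3 CPM on average.

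Since the members moved together, their promoters were read for the sequences that the DREAM and B-Myb/FoxM1 complexes and NF-Y are known to bind. Promoter windows from RefSeq (GRCm38.p6) matched 42 of the 50 members, in 45 windows. The motifs were CCAAT, the NF-Y box, and TTTGAA or TTTAAA, forms of the cell cycle genes homology region (CHR), on both strands. A search of the 250 bases before the start site came first. It found CCAAT in 80.0% of member windows and 33.8% of all 32851 windows, a CHR form in 53.3% and 25.2%, and both in 48.9% and 8.78%. The 50 bases after the start were added once that result had been seen, because a CHR can lie there. With them, CCAAT was in 80.0% and 37.4%, a CHR form in 80.0% and 27.6%, and both in 71.1% and 10.7%. The share of CHR forms thus depended on the window, and the members were chosen as cell cycle genes, for which these motifs are known. Member windows were richer in G and C, at a median of 59.6% against 52.4% before the start.

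The 250 bases before the start are printed for the 3 members with the smallest p, Ncaph (chr2:127133955-127134204, minus strand), Nek2 (chr1:191821223-191821472, plus strand) and Plk1 (chr7:122159185-122159434, plus strand). Ccnb1 (chr13:100786487-100786736, minus strand), Ccnb2 (chr9:70421555-70421804, minus strand) and Top2a (chr11:99024190-99024439, minus strand) are shown beside them as familiar genes of the class. Each reads 5′ to 3′ on the strand of its gene, and capitals mark CCAAT (or ATTGG, its other strand), TTTGAA (or TTCAAA) and TTTAAA.
Ncaph: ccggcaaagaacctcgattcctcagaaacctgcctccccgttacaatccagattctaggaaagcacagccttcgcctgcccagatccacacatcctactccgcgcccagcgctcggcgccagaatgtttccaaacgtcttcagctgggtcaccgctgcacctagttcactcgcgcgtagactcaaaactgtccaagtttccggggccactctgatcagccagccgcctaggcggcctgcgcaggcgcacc
Nek2: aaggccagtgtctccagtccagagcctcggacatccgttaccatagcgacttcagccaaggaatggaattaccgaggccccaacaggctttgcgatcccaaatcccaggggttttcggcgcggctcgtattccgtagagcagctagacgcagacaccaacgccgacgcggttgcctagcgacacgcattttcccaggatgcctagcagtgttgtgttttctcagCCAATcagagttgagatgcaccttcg
Plk1: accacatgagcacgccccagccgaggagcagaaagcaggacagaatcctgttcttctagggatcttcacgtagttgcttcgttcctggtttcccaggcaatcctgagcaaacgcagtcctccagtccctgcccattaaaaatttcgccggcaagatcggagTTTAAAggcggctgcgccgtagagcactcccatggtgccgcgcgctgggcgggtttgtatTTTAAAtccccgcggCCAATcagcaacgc
Ccnb1: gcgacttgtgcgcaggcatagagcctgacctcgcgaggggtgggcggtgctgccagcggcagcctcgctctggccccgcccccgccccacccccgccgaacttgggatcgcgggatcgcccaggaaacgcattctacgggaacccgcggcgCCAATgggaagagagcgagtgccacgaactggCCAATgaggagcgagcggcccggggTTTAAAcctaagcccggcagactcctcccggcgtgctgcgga
Ccnb2: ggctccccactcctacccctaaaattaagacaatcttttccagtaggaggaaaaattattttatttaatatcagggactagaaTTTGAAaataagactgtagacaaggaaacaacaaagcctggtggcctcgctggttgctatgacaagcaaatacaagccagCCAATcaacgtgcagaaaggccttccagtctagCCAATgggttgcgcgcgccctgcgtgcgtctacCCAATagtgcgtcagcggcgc
Top2a: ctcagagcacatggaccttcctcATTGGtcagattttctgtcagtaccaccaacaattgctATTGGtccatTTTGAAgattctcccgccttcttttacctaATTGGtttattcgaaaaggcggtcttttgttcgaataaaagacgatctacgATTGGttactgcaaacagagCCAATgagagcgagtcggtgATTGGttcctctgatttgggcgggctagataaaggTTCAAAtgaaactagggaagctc
Top2a held 6 CCAAT boxes and Ccnb2 held 3, while Ncaph held none of the motifs. Past the start site, Plk1 and Ccnb2 each held a TTTGAA that is not in the printed stretch, and Nek2 a CCAAT. A match is a string of letters and not evidence of binding. Of the 10 members of low p, Foxm1 had no window. Before the start, Ncaph, Ube2s and Anln held no motif and the other 6 held at least 1, among them Ncapd2 with 3 CCAAT and 1 CHR form, Cdca8 with 3 CCAAT and Aurka with 2.

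Other genes of the cell cycle were read in the same fit, in lists also chosen with earlier results of these data known. Of 95 other mitosis genes 93 were tested and none passed an adjusted p of 0.1 in edgeR. The DESeq2 Wald test called 4 of them, and 2.47% of all genes. Their median log2 fold change was 0.26, 74 were above 0 and 19 below, and 15 had an unadjusted p under 0.05, all higher in Mll1-/-. Of all genes, 5.40% were higher and 3.75% lower at that threshold. The smallest p among them were those of Hjurp, the chaperone that loads Cenpa, at 0.66 (SE 0.16), the kinetochore subunit Spc24 at 0.70 (SE 0.21) and the checkpoint protein Mad1l1 at 1.36 (SE 0.41). Hjurp had an adjusted p of 0.242 in edgeR. Of 40 DNA replication genes, 37 were above 0 with a median of 0.33, and 12 had an unadjusted p under 0.05, all higher, with none passing the adjusted threshold in edgeR and 3 in DESeq2. The smallest p were those of Mcm3 and Mcm5, subunits of the replicative helicase, at 0.91 (SE 0.20) and 0.77 (SE 0.20), and of Chaf1b, a histone chaperone subunit, at 1.47 (SE 0.36). Mcm3 had an adjusted p of 0.200.

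Markers of the cell types that a crypt sort could hold were read beside these genes, and none passed an adjusted p of 0.1 in edgeR (smallest 0.108). The summed level of 20 stem cell markers, led by Olfm4 at 12160 ± 2796 against 20740 ± 1705 CPM (SD, n = 4 each), was 12280 to 19210 CPM in Mll1-/- and 24660 to 29360 CPM in Mll1+/- libraries, while the list's median log2 fold change was -0.05. Of the 20 stem cell markers 8 were above 0 and 12 below, with 2 higher and 4 lower at an unadjusted p under 0.05. Over all genes tested, 5.40% were higher and 3.75% lower at that threshold, the shares to set beside each marker list here. Calls of the DESeq2 Wald test were not counted for the marker lists. For 15 Paneth cell markers the sums were 2277 to 5974 against 4048 to 7294 CPM. Of these 3 were above 0 and 12 below, with 1 higher and 9 lower at an unadjusted p under 0.05. For goblet cell markers they were 802 to 1402 against 694 to 905 CPM, and of 16 tested 12 were above 0, with 8 higher and 1 lower at an unadjusted p under 0.05. For enterocyte markers they were 337 to 419 against 514 to 658 CPM, and all 13 tested were below 0, with 6 at an unadjusted p under 0.05. Of 14 enteroendocrine markers 9 were tested, with sums of 21.9 to 47.4 against 36.9 to 114 CPM. Tuft markers summed to 4.00 to 12.8 against 2.87 to 4.71 CPM, and the 6 epithelial markers to 3438 to 4139 against 2730 to 2997 CPM. Immune markers, with Ptprc at 0 to 16 counts, summed to 2.22 to 10.1 against 9.49 to 20.3 CPM. Of 13 tuft markers 2 were tested, and of 13 immune markers 1. Stromal markers summed to 53.8 to 123 against 8.65 to 12.3 CPM, and 3 of 12 were tested. Col1a1 was at 0 to 13 counts and the endothelial Pecam1 at 59 to 106. The sum was mostly Vim, at a mean of 72.2 against 3.25 CPM, named after its values were seen (log2 fold change 4.49, edgeR adjusted p = 0.108). The part of cell makeup in the members' values was not tested.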

How the data were processed

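RNA of Lgr5-GFP+ crypt cells from 8 mice was sequenced with Smart-seq2 on poly-A cDNA, and the mouse is the replicate. The authors deposited raw read counts per gene (featureCounts 1.6.3 after GSNAP alignment to mm10, Ensembl release 92, mapping quality of at least 1), which were used for every value. The authors also deposited a signal table of those counts divided by 1 size factor per library, which served only to find the members. Counting was not stated to use strand, so reads of overlapping or antisense genes cannot be told apart, and some may be missing from the counts. Without molecular identifiers, amplified copies of a cDNA cannot be told from separate molecules. Authors' comparison columns were not used.

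The filter on low counts was filterByExpr (minimum count 10, minimum total 15). Genes were scaled with TMM and fitted with robust edgeR 4.0.16 (quasi-likelihood, genotype only, Benjamini-Hochberg, threshold 0.1) in R 4.3.3. Overlap between genotypes was read per gene, with the exact permutation test over 70 assignments.

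The 50 members and all other lists were chosen with earlier results of these data known. Values in every library were given for members with an unadjusted p under 0.05 or without overlap, for the member of highest level per length in each role, and for Mki67, Ccnb1 and Cdk1. The 3 genes of smallest p stand for each other list. Alternatives were other scalings and filters, DESeq2 1.42.0, limma-voom (limma 3.58.1), the library run as a block, a covariate of Xist minus Y-linked RNA, and each library left out. Leaving out mitochondrial genes, and searching the bases after the start site for motifs, were chosen after seeing the data.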

Additional observations from a re-analysis of the deposited data

Results flagged for a closer look

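Each member was examined for a library far from the other 3 of its genotype, and 5 of 100 groups were found. For independent groups 5 would be expected by chance, but the members share libraries and move together. Whether chance gave these 5 was therefore not tested. In the Mll1+/- mouse J_7079, Ccnb2 stood at 114.5 CPM with the other 3 at 161 to 167.3 CPM, and Cdk1 at 80.3 CPM with the others at 131.8 to 140.9 CPM. In the Mll1-/- mouse J_7135, Plk1 stood at 62.09 CPM with the other 3 at 30.39 to 34.35 CPM, and Prc1 at 126.2 CPM with the others at 72.46 to 80.74 CPM. In the Mll1-/- mouse J_7096, Birc5 stood at 213.3 CPM with the others at 167.1 to 174.2 CPM.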

How the results depend on the processing

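No member was called with edgeR under any scaling, filter, block or covariate tried, nor with limma-voom or with any library left out. The DESeq2 Wald test called 1 member, Ncaph (adjusted p = 0.0859), 4 other mitosis genes and 3 DNA replication genes at the same threshold, beside 406 genes in all where edgeR called 14. The cause was not tested. The number of members at an unadjusted p under 0.05, 10 in the report, ranged from 4 to 17 with 1 library left out. It was 4 without J_7079 or without J_7135, 5 without J_7134 and 17 without J_7136. In these fits 4.2% to 5.1% of all genes were higher in Mll1-/- at that threshold. Members without overlap, 4 in the report, ranged from 4 to 11, with 7 without J_7100 or J_7139 and 11 without J_7136. Fewer libraries overlap less often by construction, and the share over all genes was not counted there, so this rise cannot be judged. With the Xist covariate 7 members had an unadjusted p under 0.05, and with limma-voom 14, beside 5.49% and 5.51% of all genes higher. All members counted here were higher in Mll1-/-. The median log2 fold change stayed above 0, from 0.22 without J_7079 to 0.46 without J_7100, and was 0.28 with the Xist covariate. Members above 0 numbered 41 to 50, and 38 members kept their sign in all 17 alternatives.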
